A study of Rattus norvegicus with 24 samples.

Results

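MicroRNA (miRNA) precursor transcript clusters made up 426 of the 68842 non-control transcript clusters measured by whole-transcript array in the dorsal striatum of rats. A transcript cluster is the set of probes that the array maker assigned to 1 locus. Of the members, 425 were chosen by name alone, as clusters whose first gene symbol in the deposited annotation is a miRNA gene (Mir or Mirlet). The other, Mir7234, carries the name only in its description and was added because the study had named it from these same arrays. All of them were kept whatever their signal. They carry 416 distinct names, and 389 of them have a rat RefSeq miRNA accession while 37 do not. Another 182 clusters are described as miRNAs without such a symbol and are not members. Of these, 2 are described as a second miRNA of the study's striatal table. That miRNA could not be matched to a member by accession, and no value is given for it.

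The arrays came from 24 male Sprague Dawley rats, 1 array per rat, killed about a month after the last session of self-administration (SA) and shocks. The 6 control (CT) rats self-administered saline and received no shocks. The 6 shock-resistant (SR) and 6 shock-sensitive (SS) rats self-administered methamphetamine, a dopamine-releasing psychostimulant, and took contingent footshocks on part of their lever presses. SR and SS are not separate treatments, because the rats were sorted afterwards by whether they kept taking the drug under shock. The 3 YSR and 3 YSS rats were saline rats yoked to an SR or an SS partner, so that they received its shocks non-contingently and no drug. All rats carried jugular catheters and went through the cue tests of withdrawal. The comparisons ask whether drug taking under punishment (SRvsCT, SSvsCT, SRvsSS) or unavoidable shock alone (YSRvsCT, YSSvsCT, YSRvsYSS) left a lasting difference in the striatum. Values are log2 signals as deposited, so a difference of 1 is a doubling of signal. Array medians lay between 5.11 and 5.32, arrays correlated with each other at 0.988 to 0.9963 over all clusters, and 9 of 10 striatal neuron markers lay above the bioB spike-in control, a bacterial RNA added at low concentration that the study took as its threshold of expression. The choroid plexus, the secretory epithelium of the ventricles, was not evenly present. Its marker Kl (klotho) lay above bioB on 9 arrays from every group (3 of them SS, 2 SR, 2 YSR, 1 CT and 1 YSS), and the mean of 15 choroid plexus genes ran from 6.2 to 10.3 in CT, 5.82 to 9.24 in SR, 6.31 to 9.76 in SS, 6.49 to 10.6 in YSR and 5.91 to 8.12 in YSS. Markers of other regions varied too. The mean of 13 cortex genes ran from 7.83 to 9.68 in CT, 8.17 to 9.66 in SR, 8.23 to 9.99 in SS, 8.57 to 10.1 in YSR and 9.55 to 9.96 in YSS. Of the 10 striatal neuron markers, 0 were higher than in CT in either yoked group (medians -0.54 in YSR and -0.53 in YSS). In the drug groups 1 was higher in SR (median -0.37) and 2 in SS (median -0.15). The 4 measured blood genes had medians of -0.85 in YSSvsCT, -0.05 in YSRvsCT, -0.42 in SRvsCT and -0.27 in SSvsCT. The hypothalamic peptide gene Oxt read 13.7 and 14.52 on SR replicates 4 and 6 and 4.88 to 8.98 on the other arrays. In whole tissue, fewer cells of a type and less RNA per cell cannot be told apart.

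miRNAs are transcribed as long primary transcripts, often from introns of coding genes or from polycistronic clusters. The hairpins are cut out in the nucleus by Drosha, trimmed in the cytoplasm by Dicer, and loaded as short mature strands into Argonaute proteins, which they guide to messenger RNAs through the seed, bases 2 to 8 of the mature strand. In brain, miR-124 and miR-9 are known from neurons, miR-219 and miR-338 from maturing oligodendrocytes, and miR-204 from choroid plexus and pigment epithelium. The total RNA here was column-purified, a method that keeps short RNA poorly, and the array reads both long and short fragments of a locus, so a value of a member is the signal at its locus and not the amount of mature miRNA.

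The results below turn on a few loci, and their mature strands are shown with the seed in capitals, since the seed sets the family. In all, 372 members matched a rat mature strand in RefSeq (assembly GRCr8), giving 603 strands with 512 different seeds, of which 60 were shared. The largest shared seed among the 5p strands was that of the let-7 family, GAGGUAG, with 7 strands. The strands are miR-219a-5p from Mir219-2, the oligodendrocyte miRNA; miR-204-5p and miR-211-5p, which share 1 seed and lie in the introns of related channel genes; the strands of 5 miRNAs from introns of the serotonin receptor gene Htr2c; miR-3546; and miR-543-3p and miR-544-3p from the imprinted Dlk1-Dio3 locus.
rno-miR-219a-5p: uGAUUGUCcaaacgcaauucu
rno-miR-204-5p: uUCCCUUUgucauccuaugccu
rno-miR-211-5p: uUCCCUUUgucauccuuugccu
rno-miR-3552: aGGCUGCAggcccacuucccu
rno-miR-764-3p: gAGGAGGCcauaguggcaacugu
rno-miR-1912-3p: cACAGAACaugcagugaga
rno-miR-1912-5p: uGCUCAUUgcaugggcuaugu
rno-miR-1298: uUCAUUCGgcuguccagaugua
rno-miR-448-3p: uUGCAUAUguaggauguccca
rno-miR-3546: aUAACCCGggccaaaagcucac
rno-miR-543-3p: aAACAUUCgcggugcacuucu
rno-miR-544-3p: aUUCUGCAuuuuuagcaagcu
Of the 12 strands only miR-204-5p and miR-211-5p have a seed in common, so the 5 neighbours in Htr2c belong to different seed families.

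Most of the precursor loci gave little signal. The mean of bioB over the CT arrays was 9.27 ± 0.127 (SD, n = 6), and 24 of 426 members (5.63%) had a CT mean above it, against 9755 of all 68842 clusters (14.2%). Over single arrays, 19 members were above bioB on all 24 arrays and 390 were below it on all 24. The median CT mean of the members was 5.06. Because a signal depends on the sequence and number of the probes, a level is set here only against bioB and not against the level of another cluster.

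The members above bioB were of an unusual kind. Of the 37 members with no rat RefSeq accession, 16 (43.2%) were above bioB, against 8 of 389 (2.06%) of those with one. These 16 are loci of mouse miRNAs placed on the rat genome, mostly of the repeat-rich families Mir297, Mir466, Mir467 and Mir669, which in mouse lie in large tandem arrays. They also rest on few probes: 14 of the 24 members above bioB had fewer than 30 probes, where 377 of all 426 had exactly 30. Mir3473b had 3 probes over 81490 bases and a CT mean of 19.9 ± 0.044 (SD, n = 6), and Mir466n had 7 probes and 18.7 ± 0.31 (SD, n = 6). Whether such probes read the named miRNA or other copies of the same repeat was not tested.

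**Figure D1:**
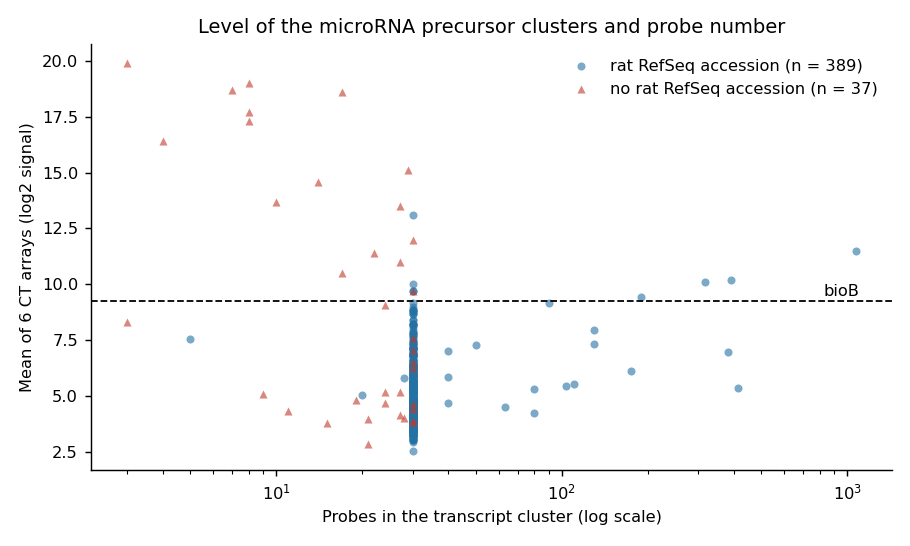
Mean log2 signal of 6 CT arrays (vertical axis) against the number of probes on a log scale (horizontal axis) for the 426 miRNA precursor clusters, by whether the locus has a rat RefSeq miRNA accession (circles, n = 389) or not (triangles, n = 37). The dashed line is the CT mean of bioB, 9.27; most of the triangles with few probes stand above it, and 8 of the circles do.

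Among the 8 members above bioB that have a rat accession were 2 loci known from brain. Mir124-1, from 1 of the 3 genes of the neuronal miR-124, covers 6686 bases with 190 probes (chromosome 15, 47961019 to 47967704) and had a CT mean of 9.41 ± 0.177 (SD, n = 6). Mir219-2 (chromosome 3, 8407430 to 8407525) had 9.68 ± 0.476 (SD, n = 6). The others included Mir770 and Mir370 of the Dlk1-Dio3 locus on chromosome 6, at 13.1 ± 0.444 and 11.5 ± 0.183 (SD, n = 6); the Mir370 cluster spans 99268 bases with 1072 probes, so it reads a long non-coding transcript unit and not a single hairpin. Coordinates are those of the deposited annotation, which has no column naming its build, and differ from those of GRCr8.

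Over the 24 arrays the median SD was 0.235 for members and 0.197 for all clusters. A range of under 1 log2 unit was seen for 240 members (56.3%, against 73.2% of all clusters), and a range of over 2 for 12 (2.82%, against 3.14%). The largest SDs were those of Mir219-2 (0.96), Mir204 (0.794), Mir1912 (0.679), Mir1969 (0.61) and Mir3552 (0.575). Of these, Mir204, Mir1912 and Mir3552 lie inside genes that are abundant in choroid plexus, and Mir219-2 is an oligodendrocyte miRNA.

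In the comparisons, a member was counted when it met the study's criterion, an unadjusted p under 0.05 with a change of at least 1.7-fold (0.766 log2 units), in limma's moderated fit across all 68842 clusters. In the SRvsCT comparison 0 of 426 members met it, against 73 of all clusters (0.106%). In the SSvsCT comparison 0 members met it, against 21 of all clusters (0.0305%). In the SRvsSS comparison 44 of all clusters met it (0.0639%), and among the members Mir7234 alone, which the study had already picked in this contrast; of the 425 members chosen by name, 0 did. In the YSRvsCT comparison 0 members met it (98 of all clusters, 0.142%), in the YSSvsCT comparison 1 member, Mir219-2 (247 of all clusters, 0.359%), and in the YSRvsYSS comparison 3 members, Mir1912, Mir3552 and Mir3546, all higher in YSR (414 of all clusters, 0.601%, of which 311 were higher in YSR, 0.452%). Thus the counts were 0 or within a few of what the share of all clusters would give in 426. After Benjamini-Hochberg adjustment over all clusters in limma, 0 members passed 0.05 in any comparison, and the smallest adjusted p of a member was 0.821, in YSRvsYSS. With no fold limit and no adjustment, p lay below 0.05 for 24, 30, 21, 28, 20 and 28 members in the order above, beside 5.41%, 5.17%, 3.56%, 4.13%, 5.16% and 6.05% of all clusters. The counts also turned on single arrays: without YSR replicate 2 the YSRvsYSS count was 0, and without YSR replicate 3 or YSS replicate 1 it was 9, without YSS replicate 3 it was 6. The YSSvsCT count was 4 without YSS replicate 1 or YSS replicate 3, and 0 without CT replicate 6, SR replicate 5, SS replicates 2, 5 or 6, YSR replicate 3 or YSS replicate 2. The YSRvsCT count was 1 without CT replicates 1, 2 or 6 and 2 without YSR replicate 3, and the SRvsSS count was 0 without SR replicate 5 or SS replicates 3, 4 or 6.

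**Figure D2:**
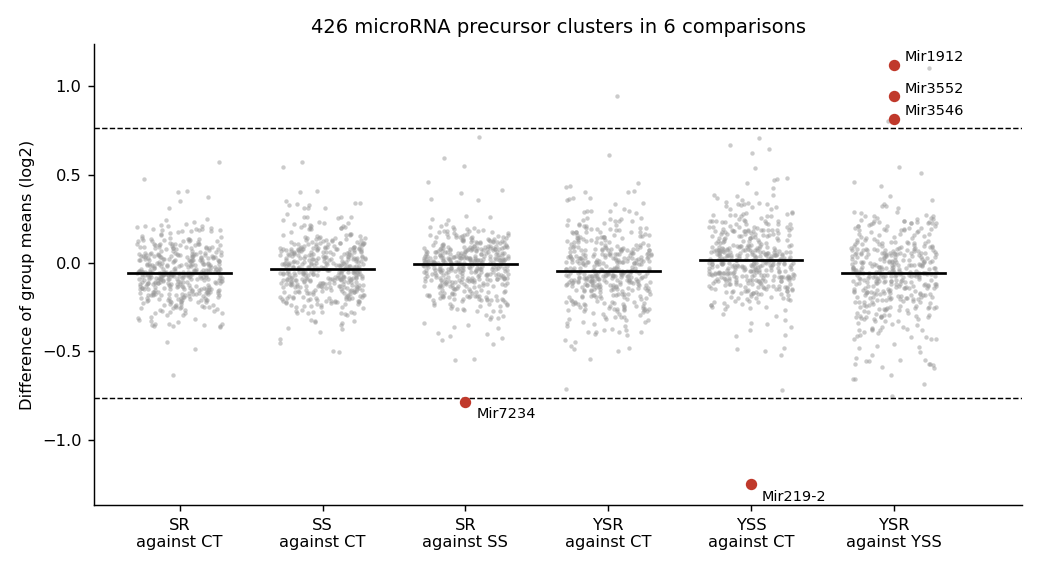
Difference of group means in log2 units (vertical axis) for the 426 members in each of 6 comparisons; points are members, black bars the median member, dashed lines the 1.7-fold limit (0.766), and red points the members at the criterion. In SRvsCT and SSvsCT all members lie inside the limit, and in YSRvsYSS 5 lie outside it, of which 3 also had an unadjusted p under 0.05.

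Differences were small as a whole. The median member differed by -0.056 in SRvsCT, where the median of all clusters was -0.036; by -0.032 in SSvsCT (all clusters -0.019); and by -0.055 in YSRvsYSS (all clusters -0.038). Between 94.1% (YSRvsYSS) and 99.5% (SRvsCT) of members differed by less than 0.5. The difference between the SR and SS contrast and the YSR and YSS contrast was also tested, and for the 58 members named by rule the smallest adjusted p in limma was 0.954.

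Mir7234 is named in the study's striatal results, which were drawn from these same arrays, so its values are given as a description with no test. Its cluster holds 28 probes over 52 bases (chromosome 1, 135178819 to 135178870, plus strand). The lowest, median and highest SR values were 3.37, 3.48 and 4.0, those of SS 3.81, 4.45 and 4.71, and those of CT 3.57, 3.94 and 4.49. SR lay low and SS high with CT between them, and the SR and SS ranges overlapped, because SR replicate 2 (4.0) stood above SS replicates 1 (3.81) and 5 (3.89). The yoked arrays read 3.87, 4.19 and 3.45 in YSR and 3.5, 3.69 and 4.38 in YSS, and covered the same span. The SRvsSS difference was -0.786, and all 24 values lay far below bioB. Without SR replicates 1, 3 or 5 or SS replicates 3, 4 or 6 in turn, it lay between -0.759 and -0.711, short of the 1.7-fold limit, and it was -0.498 once the 9 arrays high in Kl were left out, which leaves 4 SR and 3 SS arrays.

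Mir219-2 carried the largest single difference of any member. It makes miR-219a, which in mouse is needed for oligodendrocyte maturation. The CT arrays had a lowest, median and highest value of 8.91, 9.66 and 10.3, the YSS arrays read 9.61, 6.57 and 9.1, and the YSR arrays 8.72, 10.56 and 9.33. YSS replicate 2 was the lowest of the 24 arrays, the next being SS replicate 4 at 8.53, while the other YSS arrays lay inside the range of CT. The YSSvsCT difference was -1.25 (SE 0.596), with an unadjusted p of 0.0467 and an adjusted p of 0.954 in limma. In the exact two-sided permutation test, whose smallest p with 6 against 3 arrays is 0.0119, p was 0.0952. Without YSS replicate 2 the difference was -0.325. When any 1 of CT replicates 1, 2, 3, 4 and 6, SR replicate 5, SS replicates 2, 5 and 6 or YSR replicate 3 was left out, the unadjusted p passed above 0.05, at differences between -1.281 and -1.129.

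Myelin genes were also low on that array. Of 10 measured oligodendrocyte genes, a list drawn up after the Mir219-2 values had been seen (Mbp, Mog, Mag, Mobp and others), 9 were above bioB in CT. All 10 had their lowest value of the 24 arrays on YSS replicate 2, as did 4.57% of all clusters. Their mean was 11.04 on that array, against 12.28 to 13.0 in CT, 11.68 to 13.21 in SR, 12.09 to 13.08 in SS and 12.26 to 13.28 in YSR. The other YSS arrays had 12.69 and 12.48. By group mean, 0 of the 10 genes were higher than in CT in SR, 0 in SS and 7 in YSR. Mir219-2 differed from CT by 0.312, -0.281 and -0.148 in these groups, so the directions did not match in SR. The part of these genes in the Mir219-2 result was not tested beyond these values. Of the other members on the oligodendrocyte list, Mir338, in the kinase gene Aatk, read 8.45, 8.33 and 8.67 in YSS against 8.14 to 9.45 in CT, and Mir219-1, the second gene of miR-219a-5p, read 3.96, 3.96 and 3.76 against 3.82 to 4.5, near the bottom of the signal scale. Mir23a differed by 0.08 in YSSvsCT. Thus the low value on YSS replicate 2 was seen at 1 of the 2 loci of miR-219a.

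**Figure D3:**
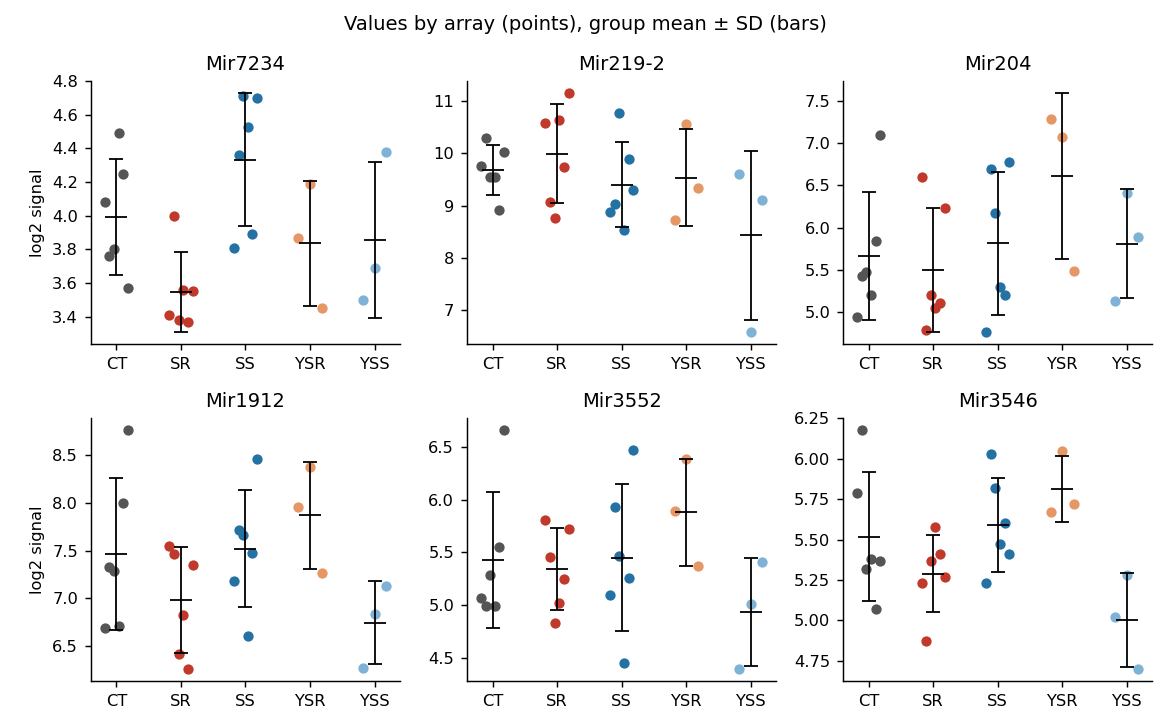
Log2 signal by array (points) with the group mean and SD (bars) for Mir7234, Mir219-2, Mir204, Mir1912, Mir3552 and Mir3546 in CT (n = 6), SR (n = 6), SS (n = 6), YSR (n = 3) and YSS (n = 3). Mir219-2 shows 1 YSS array at 6.57, far below all others, and Mir1912 and Mir3546 show YSR above YSS with no overlap.

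Htr2c codes for the serotonin 2C receptor, a Gq-coupled receptor of striatal neurons that is far more abundant in choroid plexus. On the plus strand of chromosome X it holds 5 members, in order Mir3552 (118121374 to 118121478), Mir764 (118123251 to 118123358), Mir1912 (118130652 to 118130739), Mir1298 (118190212 to 118190350) and Mir448 (118277684 to 118277795), each read by 30 probes and each with a CT mean below bioB.

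Mir1912 read 7.96, 8.38 and 7.27 in YSR and 6.27, 6.84 and 7.13 in YSS. All YSR arrays were above all YSS arrays, although the CT range, 6.69 to 8.77, covered all but 1 of the 6 yoked values. The YSRvsYSS difference was 1.12 (SE 0.477), with an unadjusted p of 0.0279 and an adjusted p of 0.824 in limma. Mir3552 read 5.89, 6.38 and 5.37 in YSR and 4.4, 5.01 and 5.41 in YSS. Its groups overlapped, YSS replicate 3 being above YSR replicate 3. Its difference was 0.942 (SE 0.431), with an unadjusted p of 0.0396 and an adjusted p of 0.824 in limma. With 3 against 3 arrays the exact two-sided permutation test cannot go below p = 0.1, and it gave p = 0.1 for Mir1912 and p = 0.2 for Mir3552. Mir764 differed by 0.36, Mir1298 by 0.28 and Mir448 by 0.18, so all 5 were higher in YSR, where 40.0% of all clusters were. This set was put together after the values were seen, and Mir1912 and Mir3552 had already met the criterion. All 5 lie in the same host gene, so the count is a description and not a test.

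Their host gene and the choroid plexus genes were also higher in YSR than in YSS. Htr2c itself read 12.85, 13.27 and 11.23 in YSR and 10.5, 10.28 and 11.3 in YSS, a difference of 1.76, and all 15 choroid plexus genes were higher in YSR, with a median difference of 1.93. The order of the 6 yoked arrays was not the same in each: the choroid plexus mean was 8.119 on YSS replicate 3 and 6.494 on YSR replicate 3, where Mir1912 was the higher on YSR replicate 3. On the 9 arrays with Kl above bioB, Mir1912 ranged from 7.13 to 8.77 (median 7.72), and on the other 15 arrays from 6.26 to 8.0 (median 6.84). For Mir3552 the ranges were 5.41 to 6.66 and 4.4 to 5.55, and for Mir764 6.11 to 6.84 (median 6.52) and 5.52 to 6.58 (median 6.17). CT replicate 6, the CT array with the highest Kl (14.65), also had the highest Mir1912 (8.77), Mir3552 (6.66) and Htr2c (13.65) of its group. The medians on the 9 arrays and the other 15 were 5.54 and 5.59 for Mir1298 and 4.46 and 4.33 for Mir448. With the mean of the choroid plexus genes as a covariate, the YSRvsYSS difference was 0.533 for Mir1912 and 0.31 for Mir3552, and neither met the criterion. This covariate was chosen after seeing the data, and the part of choroid plexus in these differences was not tested beyond these values. Leaving out the 9 arrays leaves 1 YSR array against 2 YSS arrays, with differences of 0.717 and 0.667; that 1 array gives no spread of its own, and nothing is read from these values. Both also lost the criterion without YSR replicate 1 (1.076 and 0.936), YSR replicate 2 (0.866 and 0.693) or YSS replicate 1 (0.881 and 0.672), and Mir3552 also without YSS replicate 2 (0.978).

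**Figure D4:**
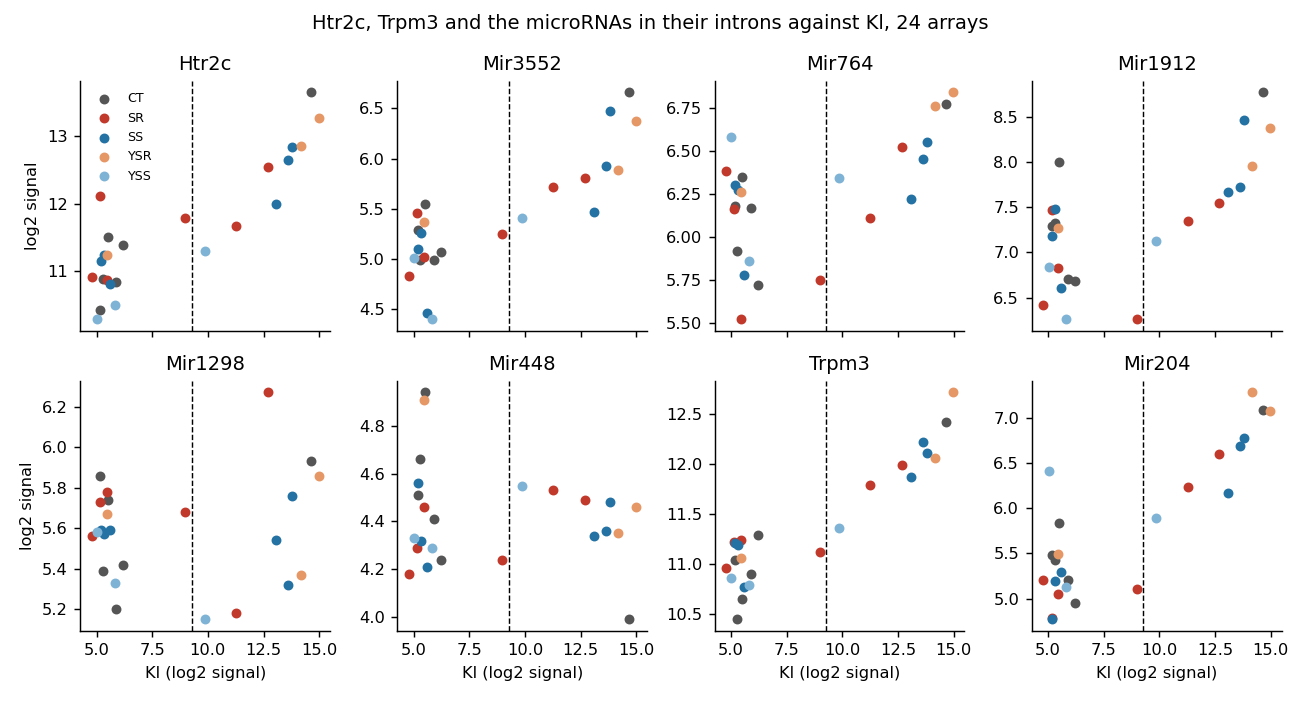
Log2 signal of Htr2c, Trpm3 and the 6 miRNA precursors in their introns (vertical axes) against that of the choroid plexus gene Kl (horizontal axes) on the 24 arrays, coloured by group; the dashed line is the CT mean of bioB, 9.27. The 9 arrays to the right of the line come from all 5 groups, and their medians exceed those of the other 15 at Htr2c (12.65 and 10.91), Trpm3 (12.06 and 11.04), Mir3552, Mir1912, Mir204 and Mir764, while those of Mir1298 are 5.54 and 5.59 and those of Mir448 4.46 and 4.33.

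Mir204 lies in an intron of Trpm3, a cation channel gene of choroid plexus and pigment epithelium (chromosome 1, 240403000 to 240403109, plus strand), and Mir211, which makes a mature strand with the same seed, lies in an intron of the related gene Trpm1. Mir204 read 7.28, 7.07 and 5.49 in YSR, 5.13, 6.41 and 5.89 in YSS, and 4.95, 5.46 and 7.09 as the lowest, median and highest of CT. YSR replicates 1 and 2 were high and YSR replicate 3 lay at the CT median. The YSRvsCT difference was 0.946 (SE 0.513), with an unadjusted p of 0.0781 and an adjusted p of 1.0 in limma, and the exact two-sided permutation p was 0.167. Without CT replicate 6 it was 1.231 and without YSR replicate 3 it was 1.508, and both then met the criterion.

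The values of Mir204 also went with those of Kl. The 9 arrays with Kl above bioB ranged from 5.89 to 7.28 (median 6.69), and the other 15 from 4.77 to 6.41 (median 5.21). Trpm3 ranged from 11.36 to 12.71 and from 10.45 to 11.29 on the same arrays, with no overlap, and differed by 0.82 in YSRvsCT. With the choroid plexus mean as a covariate the Mir204 difference was 0.154. The part of choroid plexus in the Mir204 difference was not tested beyond these values. Mir211 ranged from 7.05 to 7.78 and from 7.1 to 8.02, and differed by 0.08 in YSRvsCT, so the 2 loci of this seed did not move together. Both loci lay below bioB on all arrays, and Trpm1, the host of Mir211, was far below it, with means of 4.32 in CT and 4.28 in YSR. Of the 11 members on the choroid plexus and ciliated epithelium list, which also holds the Mir200, Mir34 and Mir449 families of ciliated and epithelial cells, 5 were higher in YSR than in CT (43.4% of all clusters were), with a median difference of -0.03, and 0 had an unadjusted p under 0.05.

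Mir3546 (chromosome 15, 33613435 to 33613550, plus strand), a rat miRNA of no stated function, read 5.67, 6.05 and 5.72 in YSR and 5.02, 5.28 and 4.7 in YSS. All YSR arrays were above all YSS arrays, and CT, from 5.07 to 6.18, overlapped both. The difference was 0.814 (SE 0.234), with an unadjusted p of 0.00207 and an adjusted p of 0.824 in limma, and the exact two-sided permutation p was 0.1, the smallest possible. It ranged from 4.7 to 6.05 on the 9 arrays with Kl above bioB and from 4.87 to 6.18 on the others. The difference fell under the 1.7-fold limit without YSR replicate 2 (0.696) or YSS replicate 3 (0.663). Leaving out those 9 arrays leaves 1 YSR array against 2 YSS arrays (0.57), which gives no test of it.

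Of the 426 members, 92 lie within a coding gene on the same strand, in 78 host genes. In YSRvsYSS, 17 of the 92 had a host that differed by at least 0.5, and 15 of these 17 differed in the direction of the host, 5 of them in the 1 host Htr2c. Over all 92 the direction was that of the host in 46. A member could differ little where its host differed more. Mir483 differed by -0.18 while its host Igf2, insulin-like growth factor 2, differed by 1.22. In SRvsCT, SSvsCT, SRvsSS, YSRvsCT and YSSvsCT the member and its host had the same direction in 45, 52, 51, 50 and 51 of the 92. Where the host differed by at least 0.5, the counts in that order were 1 of 8, 1 of 2, 3 of 5, 7 of 9 and 7 of 9. Member and host are read on the same arrays and were not tested against each other.

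The Dlk1-Dio3 locus on chromosome 6 is an imprinted region whose maternal chromosome is read as long non-coding transcripts (Meg3, Rian, Mirg) that carry a large set of miRNAs, many of them neuronal. A list of its members, set by name and running from Mir770 to Mir134, held 31. Mir1193 lies between them and is not on the list. Of the 31 listed, 24 were higher in YSS than in CT, with a median difference of 0.18. Of all clusters 54.1% were higher, with a median of 0.014. Of the 31, 5 had an unadjusted p under 0.05, all higher (3.12% of all clusters), and 0 met the criterion. In YSRvsYSS 27 of 31 were lower, with a median of -0.2, and 4 had an unadjusted p under 0.05, all lower (3.77% of all clusters). The 2 comparisons share the YSS arrays and are not independent, and neighbouring members share transcripts. Cortex markers were higher in YSS as well: 11 of 13 were higher than in CT, with a median of 0.52, and Slc17a7, the glutamate transporter of cortical neurons, differed by 2.361. In YSRvsYSS 2 of 13 were higher, with a median of -0.42. The other groups also had cortex markers higher than in CT: 12 of 13 in YSR (median 0.3), 11 in SS (0.28) and 8 in SR (0.12). In YSRvsCT 12 of the 31 Dlk1-Dio3 members were higher (43.4% of all clusters were), with a median of -0.07. The striatal neuron mean was 12.675 to 14.036 in YSS and 13.106 to 14.431 in CT. The part of these genes in the Dlk1-Dio3 values was not tested.

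One YSS array stood out in these differences. The mean of the 31 members relative to CT was 0.0, 0.44 and 0.13 on the 3 YSS arrays, and -0.14 to 0.19 on the CT arrays. It ran from -0.14 to 0.1 in SR, -0.26 to 0.14 in YSR and -0.21 to 0.32 in SS. The cortex mean was 8.517 on SS replicate 1, the array at 0.32, and 10.079 on YSR replicate 1, which was at -0.02. YSS replicate 2, the array with the low oligodendrocyte genes, was the high one; its cortex mean was 9.96, where the other YSS arrays had 9.638 and 9.551. Without it 19 of 31 were higher than in CT, with a median of 0.02 and 0 at an unadjusted p under 0.05. By array, Mir543, chosen after the values were seen, read 5.34, 6.24 and 6.02 in YSS against 4.92 to 5.55 in CT, a difference of 0.706 (SE 0.231), with an adjusted p of 0.954 in limma; it met the criterion without CT replicate 2 (0.785) or YSS replicate 1 (0.97). Mir544, chosen in the same way, read 7.56, 8.41 and 7.74 in YSS and 7.5, 6.73 and 7.23 in YSR, with no overlap, a YSRvsYSS difference of -0.75 (SE 0.286) and an adjusted p of 0.824 in limma; it met the criterion without YSR replicate 1 (-0.925) or 3 (-0.787), or YSS replicate 1 (-0.921) or 3 (-0.834). The 2 members of the region above bioB, Mir770 and Mir370, differed by 0.1 and 0.18 in YSSvsCT. In the drug groups, 14 of 31 were higher than CT in SR and 18 in SS (37.8% and 43.5% of all clusters were), with medians of -0.01 and 0.06.

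**Figure D5:**
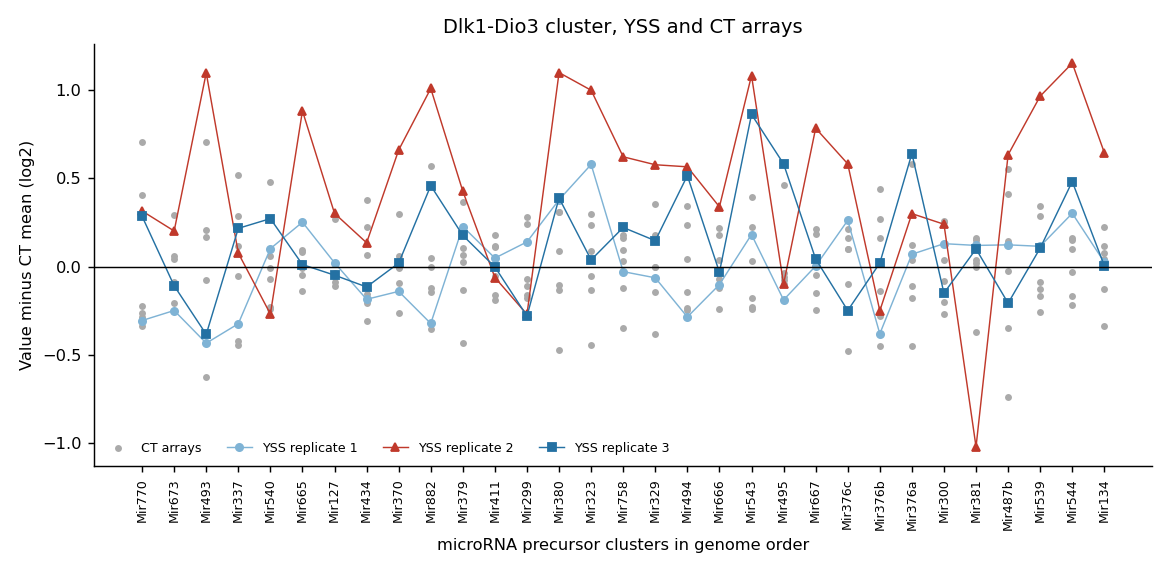
Value minus the CT mean in log2 units (vertical axis) for the 31 listed members of the Dlk1-Dio3 locus in genome order (horizontal axis), on each YSS array (lines) and each CT array (grey points). YSS replicate 2 (triangles) lies above the other YSS arrays at many members, among them Mir380, Mir543 and Mir544, and far below them at Mir381.

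YSS replicate 2 also stood apart over the whole array and not at the members alone. Of all clusters, 13.5% had their highest value there and 9.74% on CT replicate 5. Of the 426 members, 72 (16.9%) and 63 (14.8%) did. The repeat-rich families Mir297, Mir466, Mir467 and Mir669 showed the same array. Of their 14 members, 13 were higher in YSS than in CT (54.1% of all clusters were) and 0 were higher in YSR than in YSS (40.0% of all), with medians of 0.12 and -0.4. In the latter 3 had an unadjusted p under 0.05, all lower in YSR, against 3.77% of all clusters. Their mean relative to CT was -0.26, 0.53 and 0.09 on the YSS arrays. On the CT arrays it ran from -0.65 to 0.46, so YSS replicate 2 lay only a little above the highest of them. Without YSS replicate 2 only 2 of 14 were higher than in CT. Under quantile normalization and under median centring 13 of 14 were lower in YSR than in YSS. In SRvsCT all 14 were lower (10 of 14 under quantile normalization, 13 under median centring), with a median of -0.13, and none of them had an unadjusted p under 0.05; 37.8% of all clusters were higher in SR. The members of these families resemble each other in sequence, so they are not separate readings.

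The loci of neuronal miRNAs, all but 1 of them below bioB, showed little difference in signal in any comparison. Loci with so little signal do not show whether the mature miRNAs differed. Of 21 members on the brain neuron list (miR-7, miR-9, miR-124, miR-128, miR-129, miR-132, miR-134, miR-137, miR-138, miR-153, miR-212 and miR-218 loci), 1 was above bioB, 7 were higher in SR than in CT, 10 in SS than in CT and 9 in SR than in SS (37.8%, 43.5% and 46.1% of all clusters), with medians of -0.03, -0.01 and -0.03. The differences ran from -0.46 to 0.4 over these comparisons and 0 met the criterion. Mir7a-2, of the miRNA that binds the circular RNA Cdr1as, differed by 0.4 in SRvsCT and by 0.36 in SRvsSS, and Mir153, in the gene of a dense-core vesicle phosphatase (Ptprn2), by -0.43 in SRvsSS. Their adjusted p in limma were 0.86, 1.0 and 1.0. The list of miRNAs known from psychostimulant studies had 16 members, at miR-9, miR-29, miR-124, miR-132, miR-181, miR-212, miR-431 and let-7d loci. Its miR-431 locus is read within the cluster named Mir127, which carries several miRNAs. Of the 16, 6 were higher in SR and 7 in SS than in CT, with medians of -0.01 and -0.02. The differences of both lay between -0.27 and 0.4. Thus the largest difference at these loci was under the 1.7-fold limit, at loci of which 1, Mir124-1, was above bioB.

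The other families were close to 0. The 10 let-7 members, among them Mirlet7f-1 (CT mean 8.16) and Mirlet7d (6.97), had medians of 0.01 in SRvsCT and in SSvsCT and 0.03 in YSRvsYSS. Of the 15 members of miR-17-92 and its paralog clusters, which are known from proliferating cells, 4 had an unadjusted p under 0.05 in SSvsCT, all lower (3.6% of all clusters): Mir93, Mir92a1, Mir20b and Mir19b2. Mir93, in the replication gene Mcm7, had a lowest, median and highest of 5.09, 5.27 and 5.48 in CT and 4.93, 5.04 and 5.14 in SS, and 4.88, 4.96 and 5.0 in YSR. Its YSR arrays were all below its CT arrays, and it differed by -0.25 in SSvsCT and by -0.34 in YSRvsCT. Mir92a1 differed by -0.36 in SRvsCT and by -0.33 in SSvsCT, from a CT mean of 6.78. These were the members with the smallest unadjusted p in SRvsCT (Mir92a1, 0.000964), SSvsCT (Mir93, 0.000618) and YSRvsCT (Mir93, 0.000189); the adjusted p in limma were 0.86, 0.87 and 1.0. The differences share the CT arrays. Mir25 and Mir106b, the other members in Mcm7, differed by -0.13 and -0.05 in SSvsCT.

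Loci of miRNAs known from other tissues were also read. The 9 members of liver, pancreas and gut miRNAs (such as Mir122 and Mir375) and the 8 vascular and muscle members had 0 above bioB, as had the 6 blood and immune members. Of the 9, an unadjusted p under 0.05 was found for 1 higher and 3 lower in YSRvsCT (4.13% of all clusters), 2 higher and 1 lower in YSSvsCT (5.16%), and 3 lower in YSRvsYSS (6.05%). The medians were -0.09, 0.16 and -0.22. Mir375, of pancreatic islets and pituitary, was 4.87 in CT, 4.56 in YSR and 5.03 in YSS. Of the 15 members of the X-linked cluster known from testis, 1 (Mir465, CT mean 9.68) was above bioB, and 2 were higher in YSR than in YSS (40.0% of all clusters were), with a median of -0.18; 1, lower in YSR, had an unadjusted p under 0.05 (6.05% of all clusters, both directions together).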

How the data were processed

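Total RNA of the dorsal striatum of 24 rats was hybridised to Affymetrix Rat Transcriptome Arrays. The deposited values are log2 signals, which the authors made from the raw arrays with Affymetrix Expression Console; its version and summarization algorithm are not given in the sources used here. A second deposited table holds the annotation, used here for symbols and positions, and the authors' fold changes and p-values, which were not used. All 24 value columns were mapped to a sample (0 left unmapped). The 1738 control rows were left out, except bioB as the threshold. The number of rats limits the precision.

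The 5 groups were fitted as cell means in limma 3.58.1 (R 4.3.3) over all 68842 clusters, with variances moderated (prior of 3.79 degrees of freedom) and Benjamini-Hochberg adjustment over all clusters. Named members were also tested by exact two-sided permutation of arrays, in Python 3.11.15. The fit was tested on simulated data, with noise drawn independently for each cluster. Of 200 clusters changed by 1 log2 unit, the fit found 189 in SRvsCT and 173 in YSRvsYSS at an adjusted p under 0.05, with 9 and 8 false calls. Unadjusted criterion calls included 79 and 232 false ones. The simulation held no variation shared among clusters, such as that of the choroid plexus genes, so these counts may not hold for the real arrays.

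Alternatives were quantile normalization, median centring, only clusters above bioB, only the 2 groups compared, no moderation, trended and robust moderation, the replicate number as a block, fold limits of 1.5 and 2, and each array left out. A choroid plexus covariate and leaving out arrays with Kl above bioB were chosen after seeing the data. The members and lists were chosen with earlier results of these data known. Members named are Mir7234; up to 20 above bioB; the 5 with the largest change at the criterion per comparison; the 5 with the largest SD; and the 3 highest of each list. Members of Htr2c, and those said to be chosen after their values were seen, were added, as were members named as examples of a list or by the smallest p. Of the members, 11 in 5 sets have identical values, which leaves 420 separate readings, 15 rows name several miRNAs and 7 have no position. Labels name the rats' groups but no batch. Results of 2 genes, 1 of them of the oligodendrocyte list, are not reported here.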

Additional observations from a re-analysis of the deposited data

Results flagged for a closer look

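Among the 58 members named by rule or in Htr2c, each tested in CT, SR and SS (174 groups), 9 had an array set far apart from its group; chance sets about 1 in 20 groups apart. In SR, replicate 2 was high for Mir7234 (4.0, others 3.37 to 3.56); replicate 4 was high for Mir669a-3 (14.1, others 13.08 to 13.44) and low for Mir155 (4.31, others 4.64 to 4.82). Replicate 5 of SR was low for Mir3473b (19.62, others 19.79 to 19.86) and Mir465 (9.14, others 9.56 to 9.66) and high for Mir92b (6.39, others 5.78 to 5.99); 42 of the 426 members (9.86%) had their lowest value on this array, as did 9.87% of all clusters. In SS, replicate 6 was low for Mir122 (5.98, others 6.31 to 6.46) and replicate 2 for Mir499 (4.73, others 4.9 to 4.95). In CT, replicate 6, whose Kl is the highest of the group, was high for Mir3552 (6.66, others 4.99 to 5.55). The groups of 3 rats, which hold the Mir219-2 value of 6.57 on YSS replicate 2, were not tested in this way.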

How the results depend on the processing

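At an adjusted p under 0.05 the count of members was 0 in every comparison under every alternative, and 24 members were above bioB throughout. Criterion counts moved, mostly by 1 or a few. With each array left out in turn they ran over 0 to 0 in SRvsCT and SSvsCT, 0 to 1 in SRvsSS, 0 to 2 in YSRvsCT, 0 to 4 in YSSvsCT and 0 to 9 in YSRvsYSS. At a fold limit of 1.5 they were 1 in SRvsCT, 2 in SRvsSS, 1 in YSRvsCT, 5 in YSSvsCT and 8 in YSRvsYSS; at a limit of 2, 0 in SRvsSS and 1 in YSRvsYSS. Over clusters above bioB only, the counts in SRvsSS, YSSvsCT and YSRvsYSS were 0, since the members called in SRvsSS and YSRvsYSS lie below it. Without moderation YSSvsCT gave 0. With the choroid plexus covariate SRvsSS gave 0 and YSRvsYSS 1; without the arrays with Kl above bioB, SRvsCT gave 1, SSvsCT 1, YSRvsCT 2 and YSSvsCT 2; this leaves 5 CT, 4 SR, 3 SS, 2 YSS and 1 YSR arrays, so the YSRvsCT count rests on 1 rat, assumed to vary like the other groups. The cause of the shifts in these counts was not tested. With the replicate number as a block, YSRvsCT gave 1 (Mir204, 1.042) and YSSvsCT 0, and the block changed no other count by more than 1.5 times. Same-numbered arrays did not deviate together (residual correlation -0.428 to 0.384, median 0.0182, over 39 pairs), and 4 of 24 arrays correlated best with their own number. Yoked partners shared a shock schedule and need not deviate together, so this check cannot tell whether the numbers pair the rats. Of the members followed singly, none changed direction.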
